A study of Mus musculus with 6 samples.

Results

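The annexin genes were followed in NMuMG cells, an epithelial cell line from mouse mammary gland, through Anxa1, Anxa2, Anxa3, Anxa4, Anxa5, Anxa6, Anxa7, Anxa8 and Anxa11. These 9 genes were taken by symbol from the 18512 entries of the deposited count table, and all 9 passed the filter on low counts that left 13353 genes for testing. The table also had rows for Anxa9, Anxa10 and Anxa13, which are given beside the 9 as the rest of the family in this table. RNA was sequenced from cells given DMSO, a solvent used as the control, from cells given TGF-β at 5 ng/ml, and from cells given the same TGF-β with 50 uM 2APB, with 2 replicates in each of the 3 groups. TGF-β is a growth factor that drives epithelial-mesenchymal transition (EMT) in this line. 2APB (2-aminoethoxydiphenyl borate) is used to block store-operated calcium entry, the inflow of calcium that follows emptying of the endoplasmic reticulum. The study describes it as a blocker of the calcium channels ORAI1 and ORAI2 that raises entry by way of the related channel ORAI3. All libraries came from this 1 line with no genetic change named in the labels, no group with 2APB alone was analysed here, and the sources differ on the order and length of the treatments. The study's methods call the 2 replicates of a treatment biological. The p-values set a difference between groups against the spread between replicates of this 1 line, estimated over all 3 groups.

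Annexins are cytosolic proteins that bind acidic phospholipids when calcium rises, through a core of repeated helical units that each can hold calcium. They are known for organizing membrane domains, for vesicle traffic and exocytosis, and for sealing wounds in the plasma membrane. Their short or long N-terminal tails differ and dock other proteins, mostly of the S100 and penta-EF-hand families, so that several annexins act as complexes. Epithelial cells express many of them at once, several under the apical or basolateral membrane.

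Total counts per library ran from 71840570 to 79473182, and the biological coefficient of variation over all tested genes was 17.4%. Cdh1, Krt8 and Krt18, epithelial markers, were abundant in all 6 libraries, while Epcam lay between 50.6 and 163.2 normalized counts and Cldn4 was near 0 in the DMSO libraries only. Of the mesenchymal markers, Fn1, Vim and Cdh2 were already at 333780, 83748 and 12495 normalized counts or more in DMSO. Col1a1 was low there, at 51.1 and 74.4, as was Acta2, at 19.7 and 10.3. TGF-β+2APB replicate 2 stood apart in the 5 leukocyte markers, whose summed level was 30063 normalized counts against 322.7 in TGF-β+2APB replicate 1, 392.2 and 1056 in TGF-β and 1514 and 4069 in DMSO. In that library Lyz2 reached 28668, Ptprc 741.8 and Cd68 619.5 normalized counts, and all 5 markers were above 0. In each of the other 5 libraries 1 or 2 of the 5 were at 0. Endothelial and adipocyte markers were low, with their highest sums, 49.3 and 88.8 normalized counts, both in TGF-β+2APB replicate 2. Fabp4 lay at 15.7 or less in the other libraries and made up the adipocyte sum in this one. The part of this library's difference in the results below was not tested, and the counts of called genes are given with and without it. In whole cultures, fewer cells of a type and less RNA per cell cannot be told apart.

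The 9 genes together took a smaller share of all counts after both treatments than in DMSO, and this fall from DMSO was that of Anxa4. They made up 0.404% and 0.393% of the counts in the DMSO libraries, 0.318% and 0.291% under TGF-β, and 0.270% and 0.275% under TGF-β+2APB. The shares of the 3 groups did not overlap, and the order DMSO, TGF-β, TGF-β+2APB also held for all 12 annexins, at 0.451% and 0.439%, 0.339% and 0.313%, and 0.279% and 0.285%. Without Anxa4, the other 8 genes took 0.251% and 0.246% in DMSO, 0.276% and 0.256% under TGF-β, and 0.246% and 0.249% under TGF-β+2APB. Their share was higher in both TGF-β libraries than in DMSO and overlapped DMSO when 2APB was added. It was lower in both TGF-β+2APB libraries than in either TGF-β library. These are shares of raw counts, without the scaling factors of edgeR's TMM method. Those factors were 1.013 and 1.03 for DMSO, 0.987 and 1.015 for TGF-β, and 0.972 and 0.983 for TGF-β+2APB. Neither this order nor the overlap with DMSO holds for the 8 genes after that scaling. No step of the 8 genes between TGF-β and TGF-β+2APB is therefore read from the shares. No test of these shares was made, since an exact permutation test of 2 against 2 libraries cannot give a p below 0.333.

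To compare the genes with each other, normalized counts (edgeR TMM scaling to the mean library) were divided by the length of the longest coding transcript in kilobases. On this scale Anxa2, a plasma membrane annexin that pairs with the S100 protein S100A10, and Anxa4, an annexin of simple epithelia, led in DMSO. Anxa2 had 58000 and 56370 and Anxa4 56560 and 53820 normalized counts per kb in the DMSO replicates, so that the levels of these top genes overlapped. Anxa13, the annexin of intestinal epithelium, followed with 28170 ± 744 normalized counts per kb (SD, n = 2). Its transcripts in the annotation used are not marked as coding, and its longest transcript was taken. Anxa3, Anxa5 and Anxa1 came next in DMSO, at 17370 ± 462, 15220 ± 407 and 13710 ± 424. Anxa7, Anxa8, Anxa11 and Anxa6 took the next ranks, from 4778 ± 224 down to 1096 ± 34.6. Neighbours in this order from Anxa13 downwards did not overlap between their replicates.

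With TGF-β, Anxa2 stayed first at 55450 ± 7830 normalized counts per kb (SD, n = 2), and Anxa5, the phosphatidylserine-binding protein used as a probe of dying cells, rose to the second rank at 23500 ± 2570. Anxa4 dropped to the fourth rank at 14650 ± 2220, where its replicates overlapped those of Anxa1 at 14410 ± 2320 and of Anxa13 at 13180 ± 129. With TGF-β+2APB the order was Anxa2, Anxa5, Anxa3, Anxa8, Anxa1, Anxa4, Anxa13, and the replicates of Anxa1 (10820 and 10980) lay between those of Anxa8 (11950 and 11150) and Anxa4 (9112 and 10090). Anxa4 held 28.0% and 27.7% of the summed annexin level per kb in DMSO and 6.87% and 7.55% with TGF-β+2APB. Anxa8 moved from 1.49% and 1.54% to 9.01% and 8.34%. Dividing by the summed exons of all transcripts in place of the longest coding transcript put Anxa13 first in DMSO and Anxa5 first after both treatments, so the ranks depend on the transcript model, which does not enter the changes within a gene.

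**Figure D1:**
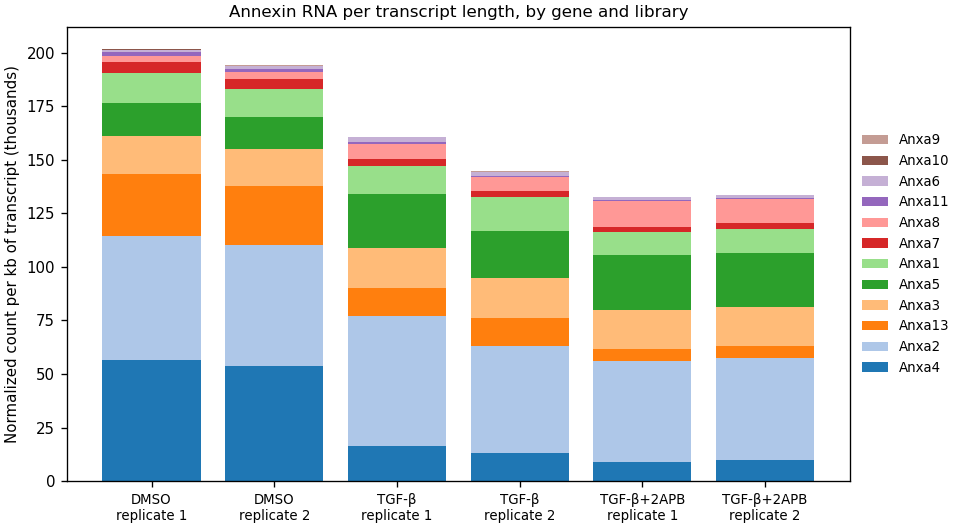
Normalized counts per kb of transcript (y axis, labelled with its scale) of 12 annexin genes stacked for each of the 6 libraries (x axis). The summed level of the 12 genes was 201800 and 194100 in DMSO, 160700 and 144600 for TGF-β, and 132700 and 133700 for TGF-β+2APB, and the Anxa4 segment at the base shrinks while that of Anxa8 widens.

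The first comparison asked how the annexin genes changed with TGF-β. Genes with a Benjamini-Hochberg adjusted p (FDR) of 0.05 or less in edgeR's quasi-likelihood test were called. Of the 9 genes, 6 were called, 3 higher (Anxa5, Anxa6, Anxa8) and 3 lower (Anxa4, Anxa7, Anxa11), and Anxa1, Anxa2 and Anxa3 were not. Over all tested genes 41.5% were called, 21.8% higher and 19.7% lower. The replicates of the groups did not overlap for 7 of 9 annexins and for 72.5% of all tested genes, and the median log2 fold change was 0.07 over the 9 genes and -0.01 over all.

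Anxa4, which is found at apical and Golgi membranes of epithelia and is known to damp calcium-activated chloride currents, fell most among the 9. It had 114810 and 109250 normalized counts in DMSO, 32933 and 26548 under TGF-β, and 18497 and 20487 under TGF-β+2APB. The 3 groups did not overlap. The fall with TGF-β was 3.77-fold (log2 fold change -1.91 ± 0.12 SE, FDR = 0.000229 by edgeR). Anxa11, whose long N-terminal tail binds the calcium sensor PDCD6 and the S100 protein S100A6, went from 4271 and 3977 normalized counts (DMSO) to 1704 and 1289 (TGF-β). Both TGF-β libraries were below both DMSO libraries, a 2.76-fold difference (log2 fold change -1.46, FDR = 0.0018 by edgeR). Anxa7, first purified as synexin and able to fuse secretory granules, went from 14334 and 13415 normalized counts (DMSO) to 9317 and 8436 (TGF-β). The groups did not overlap and the fall was 1.56-fold (log2 fold change -0.64, FDR = 0.00245 by edgeR).

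Anxa8, an annexin of late endosomes that is expressed in mammary epithelium, rose most. It had 5649 and 5630 normalized counts in DMSO, 13789 and 12169 under TGF-β, and 22473 and 20967 under TGF-β+2APB. Each group lay above the one before it. The rise with TGF-β was 2.30-fold (log2 fold change 1.20 ± 0.09 SE, FDR = 0.000346 by edgeR). Anxa6, the longest annexin, with more core repeats than the others and a role in endosomal cholesterol handling, went from 2789 and 2667 normalized counts (DMSO) to 5462 and 4269 (TGF-β). It was 1.78-fold higher (log2 fold change 0.83, FDR = 0.00431 by edgeR). Anxa5 went from 26847 and 25850 normalized counts (DMSO) to 43816 and 37532 (TGF-β). The rise was 1.54-fold (log2 fold change 0.63, FDR = 0.00346 by edgeR), and for both genes the TGF-β libraries were above the DMSO libraries.

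Anxa1, Anxa2 and Anxa3 were not called. Anxa1, a glucocorticoid-regulated annexin whose secreted form acts on formyl peptide receptors, had 23460 and 22456 normalized counts in the DMSO libraries and 21373 and 26869 in the TGF-β libraries. The TGF-β replicates lay on either side of the DMSO replicates, and the log2 fold change was 0.07 (95% interval -0.22 to 0.36). Anxa2 had 83927 and 81564 (DMSO) and 88248 and 72226 (TGF-β), again on either side, with a log2 fold change of -0.04 (95% interval -0.30 to 0.21). The direction of both turned with 1 library. Without TGF-β replicate 1, Anxa1 was called higher (0.23, FDR = 0.0125 by edgeR) and Anxa2 lower (-0.19, FDR = 0.0136 by edgeR). Without TGF-β replicate 2 the fitted values were -0.10 for Anxa1 and 0.09 for Anxa2, neither called. Anxa3, a small annexin studied mainly in myeloid cells, had 28221 and 27178 in the DMSO libraries and 29669 and 29787 in the TGF-β libraries. Its groups did not overlap, and the log2 fold change was 0.10 (95% interval -0.05 to 0.25, FDR = 0.238 by edgeR).

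**Figure D2:**
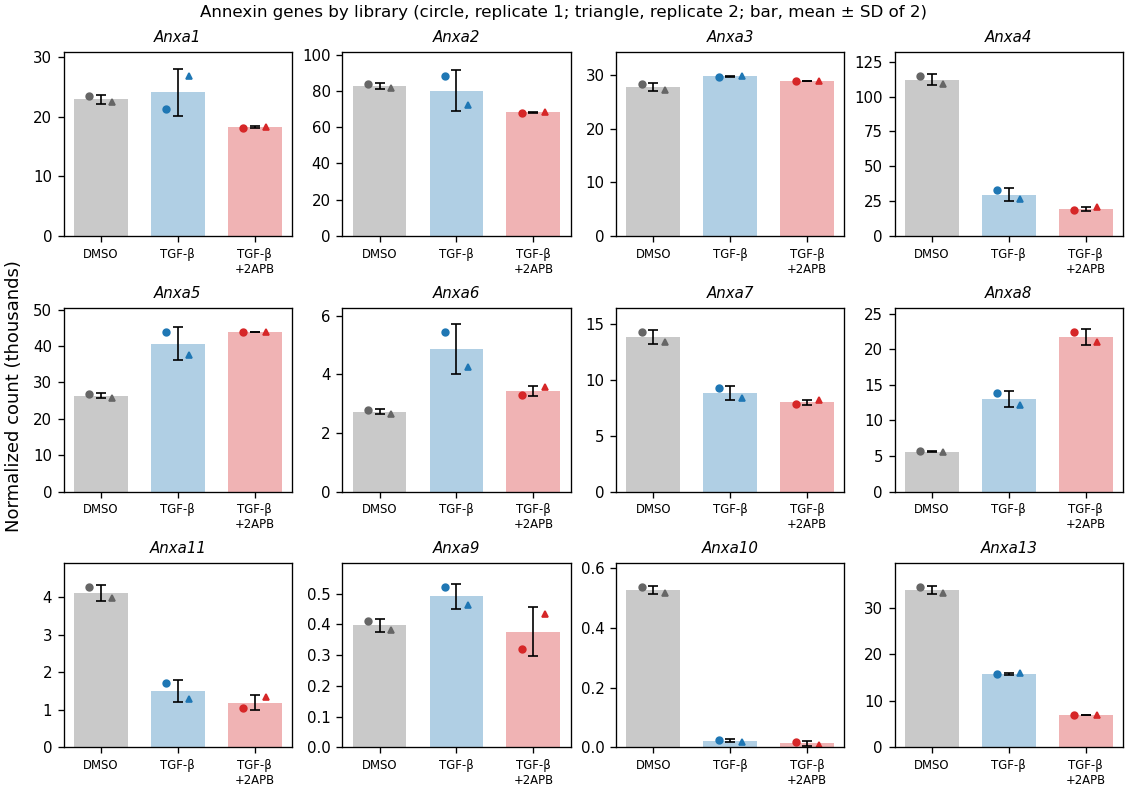
Normalized counts (y axis from 0, labelled with its scale, own range per panel) of the 9 annexin genes and of Anxa9, Anxa10 and Anxa13 in the 3 groups (x axis), with circles for replicate 1, triangles for replicate 2 and bars with error bars for the mean ± SD of 2. Anxa4 steps down from a mean of 112030 in DMSO to 29741 and 19492, while Anxa8 steps up from 5639 to 12979 and 21720.

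Of the other annexins in the table, Anxa10 and Anxa13 fell. Anxa10, an annexin of gastric epithelium, went from 536.6 and 518.6 normalized counts (DMSO) to 25.3 and 18.7 (TGF-β), a 23.8-fold fall (FDR = 0.000589 by edgeR). With TGF-β+2APB it had 17.8 and 7.89, not called against TGF-β. Anxa13 fell at each step, from 34469 and 33205 in DMSO through 15722 and 15941 (TGF-β) to 6876 and 6874 (TGF-β+2APB). The log2 fold change was -1.10 with TGF-β against DMSO and -1.20 with TGF-β+2APB against TGF-β, both called. Anxa9, a divergent annexin that has lost calcium-binding residues, was low at 410.8 and 382.2 in DMSO and was called in no comparison.

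Promoter sequences (RefSeq, GRCm38.p6, 250 bases before to 50 after an annotated start) matched 7 of the 9 genes by symbol, with none for Anxa3 and Anxa6. They were searched on both strands for the AP-1 motif TGANTCA, the SMAD box CAGAC and the SNAI1 E-box CAGGTG, the motifs of factors that act in TGF-β signaling and EMT. Of 32851 mouse promoters of this length, 7.81% held the AP-1 motif, 49.6% the SMAD box and 20.2% the E-box. The promoters of the genes with the largest rise and fall and of the only members with an E-box are shown, with the matched letters in capitals.
Anxa8: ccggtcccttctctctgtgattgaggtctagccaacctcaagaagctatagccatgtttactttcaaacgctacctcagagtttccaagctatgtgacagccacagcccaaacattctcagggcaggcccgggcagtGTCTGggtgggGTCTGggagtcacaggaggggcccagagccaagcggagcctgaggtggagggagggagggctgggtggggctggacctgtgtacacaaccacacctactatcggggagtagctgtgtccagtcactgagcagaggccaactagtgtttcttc
Anxa4: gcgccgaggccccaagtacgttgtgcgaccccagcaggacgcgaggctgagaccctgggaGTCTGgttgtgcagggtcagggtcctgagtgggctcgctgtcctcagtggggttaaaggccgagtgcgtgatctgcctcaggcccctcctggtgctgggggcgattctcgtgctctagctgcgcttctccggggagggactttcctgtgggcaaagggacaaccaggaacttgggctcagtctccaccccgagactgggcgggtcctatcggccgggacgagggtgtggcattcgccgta
Anxa7: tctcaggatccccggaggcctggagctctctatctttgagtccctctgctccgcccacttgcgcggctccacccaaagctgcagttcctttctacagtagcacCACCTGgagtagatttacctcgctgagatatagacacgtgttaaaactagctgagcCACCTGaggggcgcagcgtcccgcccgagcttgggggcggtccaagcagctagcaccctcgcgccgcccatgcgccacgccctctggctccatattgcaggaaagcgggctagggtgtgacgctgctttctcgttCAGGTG
Anxa11: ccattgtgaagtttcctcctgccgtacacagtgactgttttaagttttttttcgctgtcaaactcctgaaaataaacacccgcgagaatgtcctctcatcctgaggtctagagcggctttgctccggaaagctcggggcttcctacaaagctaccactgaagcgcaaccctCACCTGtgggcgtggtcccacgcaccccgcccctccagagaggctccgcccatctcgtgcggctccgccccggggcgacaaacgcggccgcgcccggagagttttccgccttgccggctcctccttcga
The Anxa8 promoter (chr14:34085729-34086028, plus strand) held 2 SMAD boxes, at -113 and -102 from the start site. That of Anxa4 (chr6:86793535-86793834, minus strand) held 1, at -190, and a second Anxa4 start held 1 at 26. The Anxa7 promoter shown (chr14:20479892-20480191, minus strand), the second of its annotated starts, held 3 E-boxes, at -147, -91 and 45. The other Anxa7 promoter (chr14:20480084-20480383) held none of the motifs. The Anxa11 promoter (chr14:25841905-25842204, plus strand) held 1 E-box, at -79. Among the other members, Anxa5 held 2 SMAD boxes, Anxa1 held 1, and Anxa2 held 1 AP-1 motif at -95. Both the gene that rose most and the gene that fell most held the SMAD box, as did 49.6% of all promoters. E-boxes were found in 2 of the 7 genes matched and in neither promoter of Anxa4. The 20.2% of all promoters is not a like figure, since it counts promoters, and Anxa4 and Anxa7 have more than 1 each. These matches are letters only, and no binding was measured in these files.

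The second comparison asked what 2APB added to TGF-β. It shares the TGF-β libraries with the first comparison, so a chance deviation of these libraries enters both. Of the 9 genes, 3 were called, Anxa8 higher and Anxa4 and Anxa6 lower, while 17.5% of all tested genes were called, 6.58% higher and 10.9% lower. The groups did not overlap for 8 of 9 genes (Anxa11 was the exception) and for 58.0% of all tested genes. The median log2 fold change was -0.23 over the 9 genes and -0.0037 over all. Anxa8 and Anxa4 moved further in the direction they had taken with TGF-β, and Anxa6 moved back towards its DMSO level.

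Anxa8 was 1.67-fold higher with TGF-β+2APB than with TGF-β (log2 fold change 0.74 ± 0.09 SE, FDR = 0.00687 by edgeR). Anxa4 was 1.53-fold lower (log2 fold change -0.61 ± 0.12 SE, FDR = 0.0235 by edgeR). Anxa6, with 5462 and 4269 normalized counts in the TGF-β libraries and 3310 and 3563 after 2APB was added, was 1.42-fold lower (log2 fold change -0.50 ± 0.13 SE, FDR = 0.0489 by edgeR). The calls of Anxa4 and Anxa6 did not hold when either DMSO library or either TGF-β+2APB library was left out, with FDR values from 0.0741 to 0.134 for Anxa4 and from 0.121 to 0.217 for Anxa6 by edgeR. Without TGF-β+2APB replicate 2, the library with leukocyte markers, 1 of 9 was called (Anxa8), and without TGF-β+2APB replicate 1 edgeR called 0 of 9, with 4 of 9 at an unadjusted p under 0.05 and a log2 fold change of 0.66 for Anxa8 (FDR = 0.052). DESeq2 on all libraries called 4 of 9, beside 27.3% of all tested genes without its fold change prior and 26.9% with it. Without TGF-β replicate 1 the log2 fold changes were -0.44 for Anxa4, -0.31 for Anxa6 and 0.84 for Anxa8. Without TGF-β replicate 2 they were -0.76, -0.67 and 0.66. The genes called over the whole table also moved with a library left out, as given in the last section. In all these fits Anxa4 and Anxa6 stayed lower and Anxa8 higher.

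Anxa1 had 18113 and 18380 normalized counts with TGF-β+2APB, below both TGF-β libraries, and a log2 fold change of -0.40 (95% interval -0.69 to -0.11, FDR = 0.069 by edgeR). It was called lower without TGF-β replicate 1 (FDR = 0.00487) and without TGF-β replicate 2 (FDR = 0.0201) in edgeR, and with DESeq2 without its fold change prior (adjusted p = 0.0214). Anxa2 had 68032 and 68332, below both TGF-β libraries, with a log2 fold change of -0.23 (95% interval -0.49 to 0.02, FDR = 0.178 by edgeR), and among the alternatives run was called lower only without TGF-β replicate 2 (FDR = 0.00339). Anxa11 had 1047 and 1332, which overlapped 1704 and 1289 with TGF-β, and a log2 fold change of -0.33 (95% interval -0.76 to 0.10). Anxa7 had 7874 and 8190, with -0.14 (95% interval -0.35 to 0.06). Anxa3 had 28784 and 28873, with -0.04 (95% interval -0.20 to 0.11), and Anxa5 had 43944 and 43903, with 0.11 (95% interval -0.11 to 0.33), so that the rise of Anxa5 with TGF-β was still there with 2APB.

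**Figure D3:**
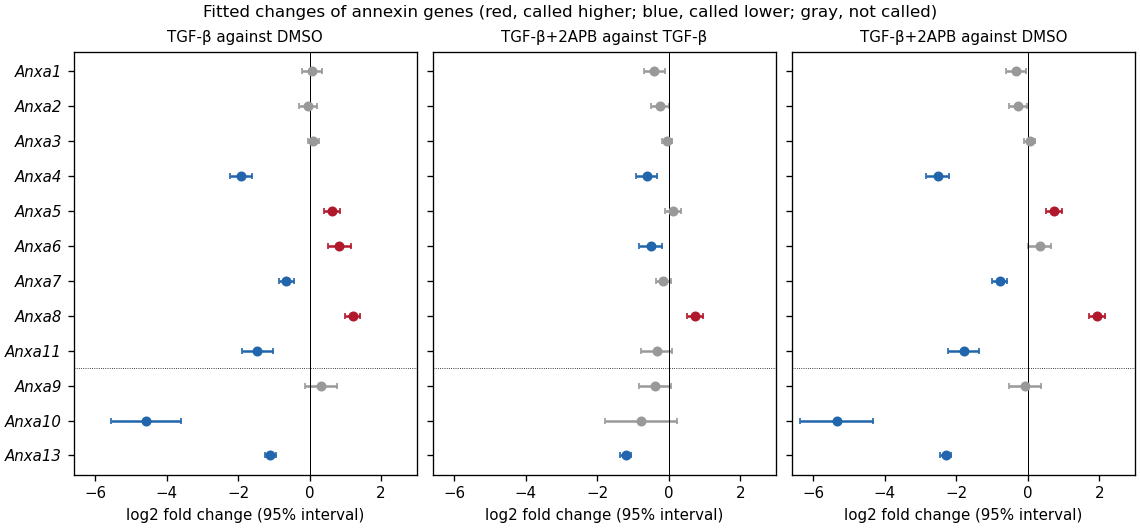
Fitted log2 fold changes (x axis) with 95% intervals of 12 annexin genes (rows) in the 3 comparisons (panels), red where called higher, blue where called lower and gray where not called. Anxa4 lies at -1.91, -0.61 and -2.52 and Anxa8 at 1.20, 0.74 and 1.95 from the left panel to the right, and the intervals of Anxa3 cross 0 in each panel.

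Against DMSO, TGF-β+2APB gave 5 called genes of 9, with Anxa5 and Anxa8 higher and Anxa4, Anxa7 and Anxa11 lower, while 52.8% of all tested genes were called, 25.6% higher and 27.2% lower. No annexin overlapped between these groups (9 of 9), and neither did 86.0% of all tested genes. The median log2 fold change was -0.28 over the 9 and -0.0033 over all. Anxa4 was 5.75-fold lower (log2 fold change -2.52, FDR = 6.48e-05 by edgeR), Anxa11 3.47-fold lower and Anxa7 1.73-fold lower. Anxa8 was 3.85-fold higher (log2 fold change 1.95, FDR = 5.38e-05 by edgeR) and Anxa5 1.67-fold higher. Anxa6 stood 1.26-fold above DMSO (FDR = 0.0739), Anxa1 1.26-fold below (FDR = 0.0577) and Anxa2 1.21-fold below (FDR = 0.0672) in edgeR. These 3 genes were called in the same directions when only the 4 libraries compared were fitted, with FDR values of 0.00467, 0.00178 and 0.00115 by edgeR. That fit called 66.9% of all tested genes. DESeq2 on all libraries also called the 3 genes in these directions (adjusted p = 0.038, 0.0384 and 0.0466 without its prior), beside 57.1% of all tested genes. Each of the 3 was called in 6 of 18 alternatives. Without TGF-β+2APB replicate 2, 5 of 9 were also called. Anxa3 differed by 0.06 (95% interval -0.09 to 0.21).

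By position the members lay on 7 chromosomes. In GRCm38, Anxa7 (chr14:20455260-20480133, minus strand), Anxa11 (chr14:25842156-25886804, plus strand) and Anxa8 (chr14:34085981-34100571, plus strand) share chromosome 14, where 2 fell and 1 rose with TGF-β. Anxa4 lies at chr6:86736840-86793584 (minus), Anxa2 at chr9:69453620-69491795 (plus) and Anxa1 at chr19:20373428-20390944 (minus). Anxa3 lies at chr5:96793339-96845966 (plus), Anxa5 at chr3:36448923-36475894 (minus) and Anxa6 at chr11:54979108-55033445 (minus). Short parts of the exons overlap another annotated gene for Anxa2 (2.63%), Anxa3 (3.07%), Anxa4 (1.61%) and Anxa11 (2.73%), and on the opposite strand for all of these but Anxa3. The strand setting of the counting is not given in the sources used here, so reads from these stretches cannot be told apart.

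Annexins work with partner proteins, and a list of 12 partner genes and 16 genes of plasma membrane repair was followed beside them. Of these 28 genes 24 were tested, and Fpr1, Fpr2, Dysf and Trim72 were too low. With TGF-β 12 of 24 were called (9 higher, 3 lower), with TGF-β+2APB against TGF-β 7 (3 higher, 4 lower), and with TGF-β+2APB against DMSO 11 (6 higher, 5 lower), beside 41.5%, 17.5% and 52.8% of all tested genes. Without TGF-β+2APB replicate 2 the counts were 11, 2 and 10, without TGF-β+2APB replicate 1 they were 11, 3 and 11, and without either DMSO library the first fell to 5 and the second to 2. Without TGF-β replicate 1 the second count was 12 and without TGF-β replicate 2 it was 14. The genes called over the whole table moved as well with a library left out, as given in the last section. With all libraries, 4 of the 10 tested partner genes were called in each comparison, and of the 14 tested repair genes 8, 3 and 7. The median log2 fold changes with TGF-β were 0.02 for the partners and 0.18 for the repair genes. The repair genes called higher with TGF-β were Capn2, Capns1, Cav1, Ptrf, Ehd1 and Ehd2, which encode calpain subunits, caveolar proteins and EHD ATPases, and those called lower were Pdcd6ip, an adaptor of the ESCRT machinery, and Smpd1, the lysosomal acid sphingomyelinase.

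S100a10, whose protein forms a heterotetramer with annexin A2, had 9627 and 9462 normalized counts in DMSO, 11327 and 9861 under TGF-β, and 6288 and 6935 under TGF-β+2APB. Both TGF-β+2APB libraries were the lowest, 1.60-fold below TGF-β (log2 fold change -0.68 ± 0.10 SE, FDR = 0.011 by edgeR). Its call was lost without TGF-β+2APB replicate 1 (FDR = 0.071), and the values of its partner gene Anxa2 in the same comparison were -0.23 with FDR = 0.178. S100a11, the partner of annexin A1, had 34764 and 33571 in DMSO, 56188 and 44230 in the TGF-β libraries, and 37306 and 39199 when 2APB was present. It was 1.47-fold higher with TGF-β (FDR = 0.0149 by edgeR) and not called with TGF-β+2APB against TGF-β (-0.39, FDR = 0.0805). The rise was not called without DMSO replicate 1 (FDR = 0.0853) or DMSO replicate 2 (FDR = 0.101). S100a11 was called lower with TGF-β+2APB than with TGF-β in 5 of 18 alternatives, namely both forms of DESeq2, library size scaling and either TGF-β library left out (FDR = 0.0303 without replicate 1 and 0.00287 without replicate 2 by edgeR). S100a6, a partner of annexin A11, ran from 92839 to 132010 normalized counts and was called in no comparison with all 6 libraries. Without TGF-β replicate 1, it was called lower with TGF-β (-0.48, FDR = 0.00157 by edgeR, beside -0.28 with all libraries) and higher with TGF-β+2APB against TGF-β (0.40, FDR = 0.00858 by edgeR, beside 0.19). Pdcd6, the calcium sensor bound by annexin A7 and annexin A11, ran from 7215 to 7881, with log2 fold changes from 0.0049 to 0.07. S100a4 reached 1503 normalized counts in TGF-β+2APB replicate 2 and lay between 379.8 and 510.8 in the other 5 libraries, so its mean in that group rests on the library with leukocyte markers.

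Among the called genes of the list, those with the largest changes with TGF-β were Cav1, Pla2g4a and Plgrkt. Cav1, the coat protein of caveolae, rose from 3062 and 3074 normalized counts in DMSO to 11625 and 12161 with TGF-β and came down to 7498 and 7783 with TGF-β+2APB. The steps were 3.88-fold up and 1.56-fold down. Pla2g4a, the cytosolic phospholipase A2 that annexin A1 is known to inhibit, rose from 3593 and 3587 to 10482 and 12717 and on to 18137 and 16522. Its 3 groups did not overlap and had the order seen for Anxa8. Plgrkt, a plasminogen receptor of the cell surface, fell from 6832 and 6140 to 2339 and 2299 and then 1568 and 1874. Ahnak, a large scaffold that binds the complex of annexin A2 and S100A10, rose from 68645 and 71346 to 148220 and 146190 and was at 178020 and 181780 with TGF-β+2APB, 2.57-fold above DMSO. The further steps with 2APB passed the test for Pla2g4a (FDR = 0.0227), Plgrkt (FDR = 0.0477) and Ahnak (FDR = 0.0261) in edgeR, but these calls depended on the fit. All 3 were lost without either TGF-β+2APB library (0.126, 0.205 and 0.251 without replicate 1, and 0.053, 0.0566 and 0.227 without replicate 2) and without either DMSO library (0.076, 0.11 and 0.0985 without replicate 1, and 0.0774, 0.109 and 0.0968 without replicate 2), and that of Plgrkt also without TGF-β replicate 1 (0.0513). In all, they were lost in 8, 10 and 8 of 18 alternatives.

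**Figure D4:**
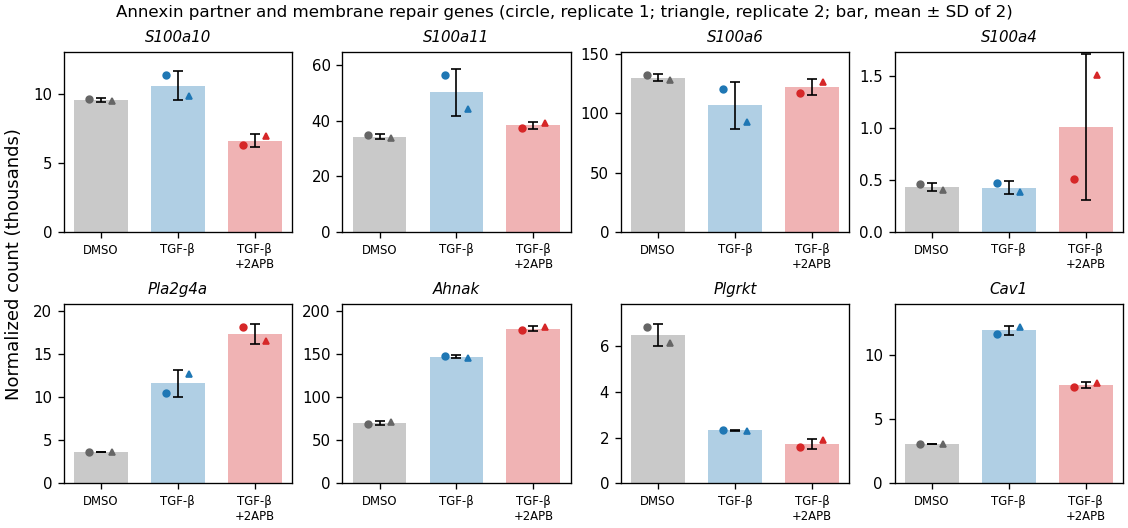
Normalized counts (y axis from 0, labelled with its scale, own range per panel) of 8 annexin partner and membrane repair genes in the 3 groups (x axis), with circles for replicate 1, triangles for replicate 2 and bars with error bars for the mean ± SD of 2. S100a10 is lowest with TGF-β+2APB, Cav1 is highest with TGF-β, and S100a4 is high in 1 of the 2 TGF-β+2APB libraries.

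The annexins differed little between the DMSO replicates and more between those of TGF-β. Over the 9 genes, log2 ratios of replicate 2 to replicate 1 ran from -0.103 to -0.0049 in DMSO. They ran from -0.403 to 0.330 under TGF-β and from -0.100 to 0.346 under TGF-β+2APB. The SD of the ratio over genes leaves out a shift that the genes share. It was 0.029 in DMSO, 0.226 under TGF-β and 0.127 under TGF-β+2APB for the 9 genes. Over all tested genes, many of which are less abundant, it was 0.301, 0.525 and 0.730. The spread of the annexins was widest with TGF-β, where replicate 2 was lower than replicate 1 for 7 of the 9 and higher for Anxa1 and Anxa3.

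**Figure D5:**
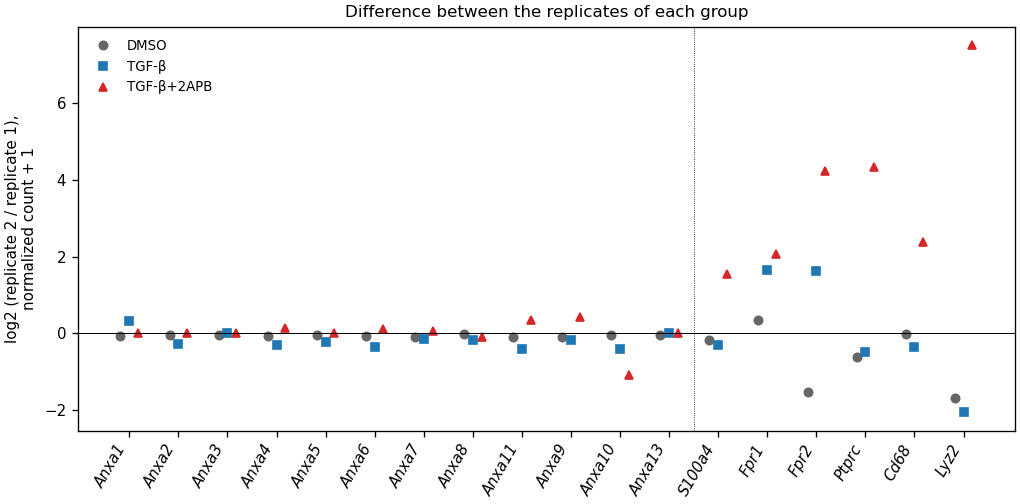
Log2 ratio of replicate 2 to replicate 1 (y axis, normalized count plus 1) for 12 annexin genes and, right of the dotted line, S100a4, the formyl peptide receptor genes and 3 leukocyte markers (x axis), with gray circles for DMSO, blue squares for TGF-β and red triangles for TGF-β+2APB. Apart from Anxa10, a gene of low counts, the annexin points run from -0.403 (Anxa11, TGF-β) to 0.429 (Anxa9, TGF-β+2APB), while Lyz2 lies far above 0 for TGF-β+2APB.

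The genes most like Anxa4 and Anxa8 over the 6 libraries were found by the distance of log2 CPM values centred on the DMSO mean. For Anxa4 they were Llgl2, a cell polarity gene (distance 0.275), Ddx58, an RNA sensor of antiviral defence (0.278), and Zfp185, a LIM domain gene (0.326). Llgl2 had log2 fold changes of -1.99 (TGF-β) and -2.35 (TGF-β+2APB) against DMSO. For Anxa8 they were Ctsl, the lysosomal protease cathepsin L (0.119), Mapk4, an atypical MAP kinase (0.157), and 1700001C19Rik (0.175). Ctsl had 1.20 and 1.98 against DMSO, beside 1.20 and 1.95 for Anxa8. These genes were picked for likeness over the same libraries, so their values are a description.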

How the data were processed

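RNA selected with oligo-dT from NMuMG cells of 3 groups was sequenced by the authors, and 6 libraries (2 per group) were analysed here. Per the study's methods and the submitters' processing notes, reads were checked with FastQC 0.11.2, aligned with TopHat2 2.0.13 and counted on genes with featureCounts. The deposited values are raw counts per gene, not normalized. All were even numbers. The methods name hg19 and the notes mm10, and the symbols are mouse symbols. The annotation used for counting and the treatment of reads with several alignments are not given in the sources used here. Any gene that shares sequence with a pseudogene is therefore less certain.

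Counts were scaled by TMM factors and fitted by edgeR 4.0.16 (with limma 3.58.1, under R 4.3.3) with the quasi-likelihood F-test, with the 3 groups in 1 model and no covariate. Tests covered genes whose mean normalized count was 20 or more, and a Benjamini-Hochberg FDR of 0.05 or less over all 13353 tested genes was called. The SE of a log2 fold change was taken as its size over the root of its F value, and 95% intervals use 5.69 degrees of freedom. Depth was alike across libraries. The SDs cover the spread of 2 replicates only. The SEs and intervals use a spread estimated over all 3 groups in the 1 model, with information shared across genes. A library outside a comparison therefore enters its SE. Transcript lengths and positions came from GENCODE vM21 (GRCm38) and promoters from RefSeq (GRCm38.p6). Tables and plots used Python 3.11.15, pandas 2.3.3 and matplotlib 3.10.9. The procedure was tested on simulated data.

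The 9 annexin genes and the partner, repair and marker lists were chosen with earlier results of these data known. Named genes were the 12 annexins, the S100 partners, in each comparison the 3 called list genes with the largest change, and for the 2 annexins with the widest range of group means the 3 genes with the nearest pattern. Other list genes named were chosen after their values were seen. Alternatives were DESeq2 1.42.0 with and without prior, scaling by RLE or library size, other filters and thresholds, a block for replicate numbers, fits of 4 libraries, halved counts and each library left out. A block with exchanged replicate numbers was added after the data had been seen.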

Additional observations from a re-analysis of the deposited data

How the results depend on the processing

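Against DMSO, the falls of Anxa4 and Anxa11 and the rise of Anxa8 kept their direction and stayed called in all 18 alternatives of both comparisons, and those of Anxa5, Anxa7 and, with TGF-β alone, Anxa6 in 17 of 18, with only the minimum log2 fold change of 1 as exception. The count of annexins called with TGF-β was 3 under that minimum and 6 to 8 with a library left out. For TGF-β+2APB against TGF-β, the main count of 3 became 4 with DESeq2, 2 with no filter, 1 with the replicate block, with only the 4 libraries compared and with an FDR of 0.01, 0 with the minimum log2 fold change of 1 (4 had an unadjusted p under 0.05, and the change of Anxa8 was 0.74), and 0 to 6 with a library left out. The fall of Anxa4 was called in 10 and that of Anxa6 in 9 of 18 alternatives, and the rise of Anxa8 in 16, and the cause was not tested. For TGF-β+2APB against DMSO, the count of 5 became 8 with DESeq2 (both forms) and with only the 4 libraries compared. It became 3 with the minimum log2 fold change of 1. The share of all tested genes called was 57.1% with either form of DESeq2, 66.9% with only the 4 libraries and 22.7% under that minimum. Of the partner and repair genes, the count with TGF-β (12) became 7 with an FDR of 0.01, 4 with the minimum log2 fold change of 1, and 5 to 14 with a library left out. With TGF-β+2APB against TGF-β (7) it became 14 with DESeq2 (both forms), 4 with no filter, 2 with the replicate block and with only the 4 libraries compared, 1 with an FDR of 0.01, 0 with the minimum log2 fold change of 1, and 2 to 14 with a library left out. Against DMSO (11) it became 5 with the minimum log2 fold change of 1. Signs turned only for small values that were not called. With TGF-β, the values ran from -0.103 to 0.233 for Anxa1 and from -0.190 to 0.0929 for Anxa2 with a library left out, turning without TGF-β replicate 2. Others that turned were Anxa3 (-0.0059) with TGF-β+2APB against DMSO under library size scaling, and Anxa9 there, which ran from -0.28 to 0.12 with a library left out (0.12 without TGF-β+2APB replicate 1). S100a4 with TGF-β turned to 0.0069 with only the 4 libraries compared and ran from -0.17 to 0.125 with a library left out. The genes called over the whole table for TGF-β+2APB against TGF-β moved from 2334 (17.5%) to 3645 (27.3%) with DESeq2 without prior, 1342 (10.1%) with the replicate block, 860 (6.54%) with only the 4 libraries compared, 601 (4.50%) at an FDR of 0.01, 840 (6.29%) at the minimum log2 fold change, and 834 to 5405 with a library left out. For TGF-β against DMSO, 5548 genes (41.5%) moved to 3369 at an FDR of 0.01, 2117 at the minimum log2 fold change and 2753 to 7641 with a library left out, and for TGF-β+2APB against DMSO, 7044 (52.8%) moved to 3029 at that minimum and 4355 to 9006 with a library left out.

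Deviations of same-numbered libraries correlated across genes by 0.156 (DMSO and TGF-β), -0.479 (DMSO and TGF-β+2APB) and -0.247 (TGF-β and TGF-β+2APB). Exchanging the TGF-β+2APB numbers would turn the sign of both negative values. These values cannot decide whether the numbers pair the libraries. Each group gives a single replicate difference, and that of TGF-β+2APB includes the library with leukocyte markers. The replicate block took away the calls of Anxa4 (FDR = 0.0545 by edgeR) and Anxa6 (0.0888) with TGF-β+2APB against TGF-β and changed no other annexin call. With the numbers of TGF-β+2APB exchanged, an alternative chosen after seeing the data, 3 annexins were called in that comparison. With 2 replicates, small changes such as those of Anxa1, Anxa2 and Anxa3 were not called in the main fit. Some alternatives called Anxa1 and Anxa2, among them DESeq2 on all libraries for TGF-β+2APB against DMSO. What limited these calls was not tested.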
